A study of Homo sapiens with 2 samples.

Results

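Epithelial-mesenchymal transition (EMT) is described here through 10 genes in A549, a long-established cell line from a human lung adenocarcinoma, after siRNA against ADGRF4, an adhesion G protein-coupled receptor. The genes were chosen by name, with earlier results of these data known. They comprise 5 structural markers of mesenchymal cells (VIM, CALD1, CDH2, FN1 and SPARC) and 5 transcription factors of the transition (SNAI1, SNAI2, TWIST1, ZEB1 and ZEB2). All 10 were among the 24462 gene symbols of the count files, each on 1 row. The study holds 1 library of A549 cells transfected with control siRNAs and 1 of A549 cells transfected with ADGRF4 siRNAs, both from cells grown in DMEM with fetal bovine serum. No time after transfection, siRNA sequence or replicate is given in the labels. The messenger RNA was read by QuantSeq, a method that primes on the poly(A) tail and counts reads at the 3' end of transcripts, so a count reflects transcripts and is little affected by their length.

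In the transition, epithelial cells loosen their junctions, take up a spindle shape and become motile. The factors of the Snail, Twist and ZEB families bind E-box sequences and repress CDH1, which encodes the epithelial adhesion protein E-cadherin, while vimentin filaments, N-cadherin and fibronectin are commonly used as markers of the mesenchymal state. The microRNAs of the miR-200 family and the ZEB factors repress each other, and A549 is often used to study the transition because the line holds both epithelial and mesenchymal features.

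The libraries held 10396047 counts (control) and 9825320 counts (ADGRF4 siRNA). The 10 genes together held 13494 and 9800 of these, or 0.130% and 0.0997%. Neither treatment has a replicate, so the differences compare 2 libraries and carry no test or p-value. All intervals are exact 95% intervals of the counting error, and the error between cultures was not measured. Levels are given as scaled CPM, that is, counts divided by a library size corrected with edgeR's TMM factors. Fold differences of single genes are ratios of scaled CPM, and log2 ratios are of scaled CPM + 1, a scale that understates the difference of low genes. ADGRF4 itself had 3 counts in the control and 1 after its siRNA, too few to check the labels of the libraries by the silenced gene. The 9 epithelial and metabolic genes taken as markers of A549 were all above the count limit. Of these 9, 3 were at least 1.5-fold higher and 5 lower, beside 21.1% and 22.3% of all symbols compared. The largest ratios were those of the keratin KRT7, 2.66-fold higher, and of the metabolic enzymes AKR1B10, AKR1C1 and ALDH1A1, lower by 4.86-fold, 2.93-fold and 2.34-fold. Genes of other cell types were almost unread. The endothelial list of 3 genes summed to 0 and 3 counts, with VWF at 0 in both libraries, and CD3E (T cells), LUM and PDGFRB (fibroblasts) were also at 0 in both. COL1A1 held 50 and 45 of the 50 and 51 counts of the 5 fibroblast genes. The 4 leukocyte genes summed to 58 and 42 counts, 45 and 30 of them from CD14.

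Of the 10 genes, 5 averaged 30 counts or more across the libraries and were compared: VIM, CALD1, CDH2, FN1 and ZEB1. The others were SNAI1, SNAI2, TWIST1, ZEB2 and SPARC, whose counts lay between 0 and 31. Among those compared, VIM was lower after ADGRF4 siRNA, while N-cadherin, fibronectin, caldesmon and ZEB1 lay within 1.5-fold of the control. Thus 1 of 5 was at least 2-fold lower and 0 of 5 at least 2-fold higher. Across all 11771 symbols compared, 10.4% were at least 2-fold lower and 7.84% at least 2-fold higher. At 1.5-fold the counts of the 5 genes were the same, 1 lower and 0 higher, beside 22.3% and 21.1% of all symbols. The median log2 ratio of the 5 genes was 0.12, and that of all symbols compared was -0.02. With so few genes compared, 1 lower gene is near the share of all symbols and sets the genes apart in no direction.

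**Figure D1:**
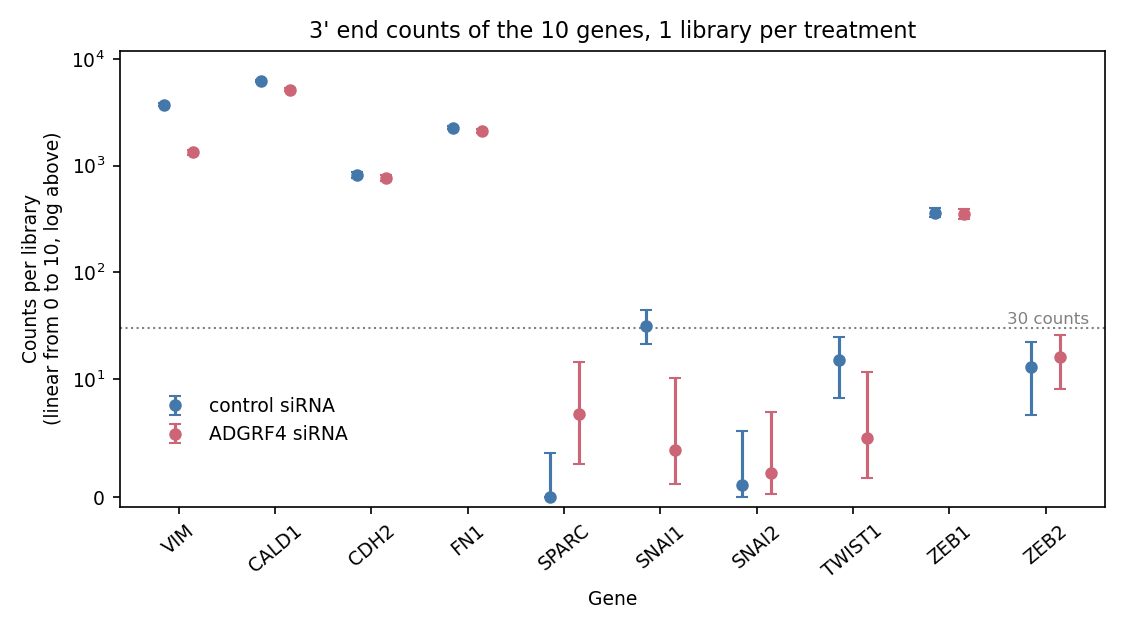
Counts of each gene in the control library (blue) and the ADGRF4 siRNA library (red), with exact Poisson 95% intervals, on an axis that is linear from 0 to 10 and logarithmic above. Among the genes above the dotted line at 30 counts in both libraries, VIM shows the widest gap, at 3723 and 1345 counts.

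The sequences below serve the 2 genes on which the results turn, VIM and ZEB1. The promoter of VIM, the compared gene that differed by more than 2-fold, is given as 250 bases before to 50 bases after the gene's start in RefSeq (GRCh38.p14, chr10:17227991-17228290, plus strand). Capitals mark GGGCGG, a GC box, which was searched on both strands and occurs once. It was found in 45.0% of the 35116 promoter windows of the same length.
VIM promoter: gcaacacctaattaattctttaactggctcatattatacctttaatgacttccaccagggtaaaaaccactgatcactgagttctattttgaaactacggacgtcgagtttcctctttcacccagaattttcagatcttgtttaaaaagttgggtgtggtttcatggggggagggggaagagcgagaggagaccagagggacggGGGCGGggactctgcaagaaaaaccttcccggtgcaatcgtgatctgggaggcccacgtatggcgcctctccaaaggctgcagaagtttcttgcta

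The mature microRNAs of the miR-200 family are printed from RefSeq, with the seed (bases 2 to 8) in capitals, because ZEB1 is the factor of the list that these libraries read best. The libraries do not measure mature microRNAs. The family holds 2 seeds, AAUACUG (miR-200b and miR-200c) and AACACUG (miR-200a and miR-141).
hsa-miR-200b-3p: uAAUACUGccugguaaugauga
hsa-miR-200c-3p: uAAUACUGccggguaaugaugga
hsa-miR-200a-3p: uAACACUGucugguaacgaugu
hsa-miR-141-3p: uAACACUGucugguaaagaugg

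The first match to each seed in the longest annotated 3' untranslated region of ZEB1 (GENCODE 29, GRCh38) is printed with its flanks, the match in capitals, on the transcript strand.
ZEB1 site of miR-200b and miR-200c: ttttatcttatCAGTATTatcactcttat
ZEB1 site of miR-200a and miR-141: atcatcagaatCAGTGTTtgtgattgtgt

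ZEB1 held 6 matches to the first seed (CAGTATT) and 3 to the second (CAGTGTT) in 2549 bases, and ZEB2 held 5 and 4 in 5370 bases. Of 19132 genes with an annotated region, 16.0% held at least 1 match to the first seed and 18.3% at least 1 to the second, while 0.842% and 1.05% held at least 3. These regions differ in length, so the shares describe the letters only. FN1 held 2 matches to the first seed, SNAI2 held 1, and CALD1 held 1 to each. VIM, CDH2, SNAI1, TWIST1 and SPARC held none. The E-box letters CAGGTG were searched on both strands as the form bound by Snail and ZEB proteins. They were found in 20.6% of all promoter windows. The set of windows covered 7 of the genes with 17 windows, and 2 of these held the letters. Both were among the 7 windows of ZEB1. SNAI1, SNAI2 and TWIST1 had no window in the set used.

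VIM encodes vimentin, the intermediate filament protein of mesenchymal cells, which many carcinoma lines in culture also make. It had 3723 counts in the control and 1345 counts after ADGRF4 siRNA, or 340.1 and 144.1 scaled CPM. The control library is the higher one, and the counting intervals (3604 to 3845 and 1274 to 1419 counts) do not overlap. VIM was 2.36-fold lower (2.22 to 2.51), with a log2 ratio of -1.23, and 6.75% of the symbols compared had a ratio as low or lower. VIM-AS1, an antisense RNA whose exons overlap those of VIM, had 2 and 11 counts. Counting without strand would mix the reads of this pair. In bulk RNA, fewer cells that make vimentin and less VIM RNA per cell cannot be told apart either.

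The libraries differed with the base composition of transcript ends, and VIM lies where ratios were lower. Symbols were sorted into 20 bins by 3' GC content, the percentage of G and C in the final 300 bases of the longest annotated transcript. The median log2 ratio was -0.35 in the bin with the lowest GC content and 0.84 in the bin with the highest. VIM, at 31.3% GC, shared a bin of 577 symbols with FN1 (31.0%) and CALD1 (30.7%). The median log2 ratio of that bin was -0.32, and 82 of its symbols (14.2%) were at least 2-fold lower. Relative to the bin median the log2 ratio of VIM was -0.91, which no longer reached 2-fold but remained past 1.5-fold. Which annotated end of VIM was read is not known from counts per symbol. The ends of its annotated coding transcripts range from 31.3% to 71.0% GC. Transcripts annotated incompletely at the 3' end were not left out of this range.

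**Figure D2:**
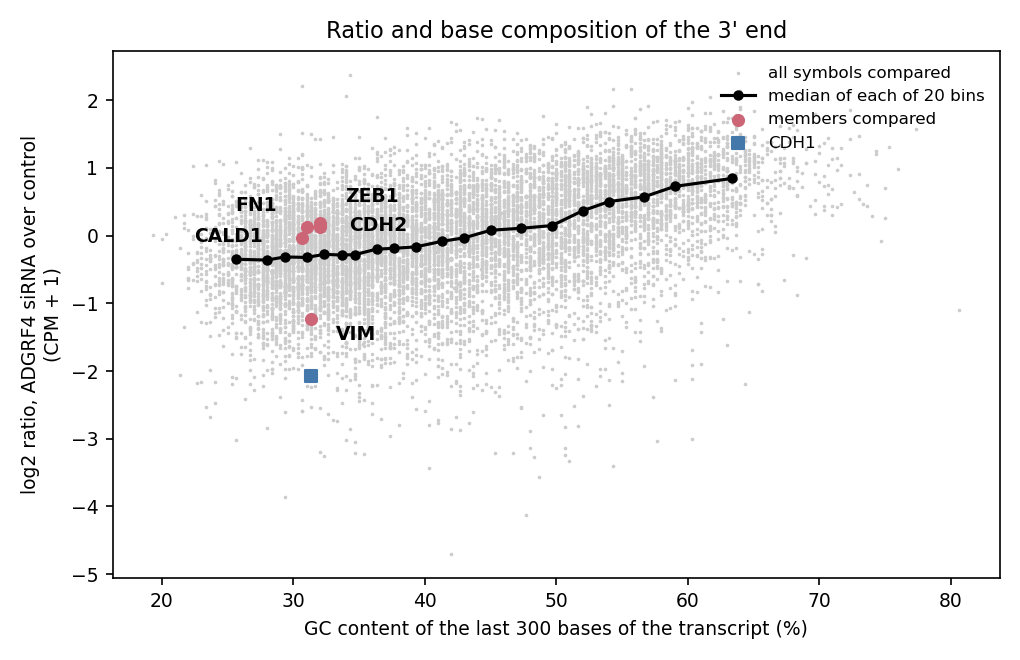
Log2 ratio (ADGRF4 siRNA over control, scaled CPM + 1) against 3' GC content (%, final 300 bases), for all symbols compared (grey), the median of each of 20 bins (black line), the 5 members compared (red) and CDH1 (blue square). The bin medians rise from -0.35 to 0.84, and the members sit together near 31% GC, 4 of them above the line and VIM below it.

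A ratio of VIM to another gene of the same library does not depend on how the libraries are scaled. VIM had 1.63 counts per FN1 count in the control and 0.634 after ADGRF4 siRNA, a 2.57-fold lower ratio (2.36 to 2.80). Per CALD1 count the values were 0.596 and 0.259, 2.30-fold lower (2.14 to 2.47). By the longest annotated transcript, FN1 and CALD1 lie in the GC bin of VIM. The ends of their annotated coding transcripts range from 31.0% to 50.7% GC for FN1 and from 27.7% to 59.3% for CALD1. Here too, incompletely annotated transcripts were not left out. Since the ends read are not known, a similar composition of the reads is not established. Vimentin relative to the keratins depended on the keratin. Per count of KRT18, VIM was 3.72-fold lower (3.49 to 3.97), and per count of KRT8 it was 1.52-fold lower (1.41 to 1.62). These 2 ratios do not account for base composition, since the 3' GC content was 50.7% for KRT18 and 58.3% for KRT8. Relative to the GC bins the log2 ratios were 0.51 for KRT18, -1.36 for KRT8 and -0.91 for VIM. On that scale VIM was not lower relative to KRT8. KRT8 and KRT18, which pair in the filaments of simple epithelia, themselves differed in opposite directions, KRT8 1.56-fold lower and KRT18 1.58-fold higher.

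CALD1 encodes caldesmon, an actin- and tropomyosin-binding protein. It had 6244 counts in the control and 5184 after ADGRF4 siRNA, or 570.4 and 555.5 scaled CPM, and the fold of 0.974 (0.938 to 1.01) includes no difference. FN1 encodes fibronectin, a secreted glycoprotein of the matrix that integrins bind. It had 2283 and 2120 counts, or 208.6 and 227.2 scaled CPM, which is 1.09-fold higher (1.03 to 1.16) after ADGRF4 siRNA. CDH2 encodes N-cadherin, the cadherin that mesenchymal cells use for adhesion, and had 821 and 765 counts, or 75.0 and 82.0 scaled CPM. Its fold was 1.09 (0.989 to 1.21). The log2 ratios of CDH2 (0.13) and FN1 (0.12) turned to -0.020 and -0.025 under total-count scaling, so neither gene has a direction here. Relative to the medians of their GC bins, the log2 ratios were 0.40 for CDH2, 0.45 for FN1 and 0.28 for CALD1. The libraries thus gave differences far under 2-fold for all 3 under each scaling, and their counting intervals do not reach 2-fold.

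SPARC encodes osteonectin, a secreted collagen-binding protein made by fibroblasts and bone cells. It had 0 counts in the control and 7 after ADGRF4 siRNA (exact Poisson interval 2.81 to 14.4). With the control set at a floor of 3 counts the ratio of scaled CPM is 2.74-fold. With the counting error of both libraries the exact interval starts lower, at 1.69-fold, so a difference under 2-fold is not excluded. Both levels are near the limit of reading. Of the 7272 symbols at 0 in the control, 89 (1.22%) had at least 7 counts after ADGRF4 siRNA, and the reverse held for 80 of 7269 (1.10%).

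The epithelial and the mesenchymal cadherin gene differed between the libraries to unequal degrees. CDH1 had 1218 counts in the control and 239 after ADGRF4 siRNA, or 111.3 and 25.6 scaled CPM, so that the control is far higher and CDH1 was 4.34-fold lower (3.78 to 5.01). N-cadherin was level, as given above. There were 0.674 CDH2 counts per CDH1 count in the control and 3.20 after ADGRF4 siRNA. This within-library ratio was 4.75-fold higher (3.99 to 5.65), and the difference lies in the CDH1 counts. CDH1 has the 3' GC content of VIM (31.3%) and lies in the same bin, where its log2 ratio relative to the bin median was -1.75. The epithelial cadherin and the mesenchymal filament gene were therefore both lower in the same library, and none of VIM, CALD1, CDH2 and FN1 was at least 1.5-fold higher.

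**Figure D3:**
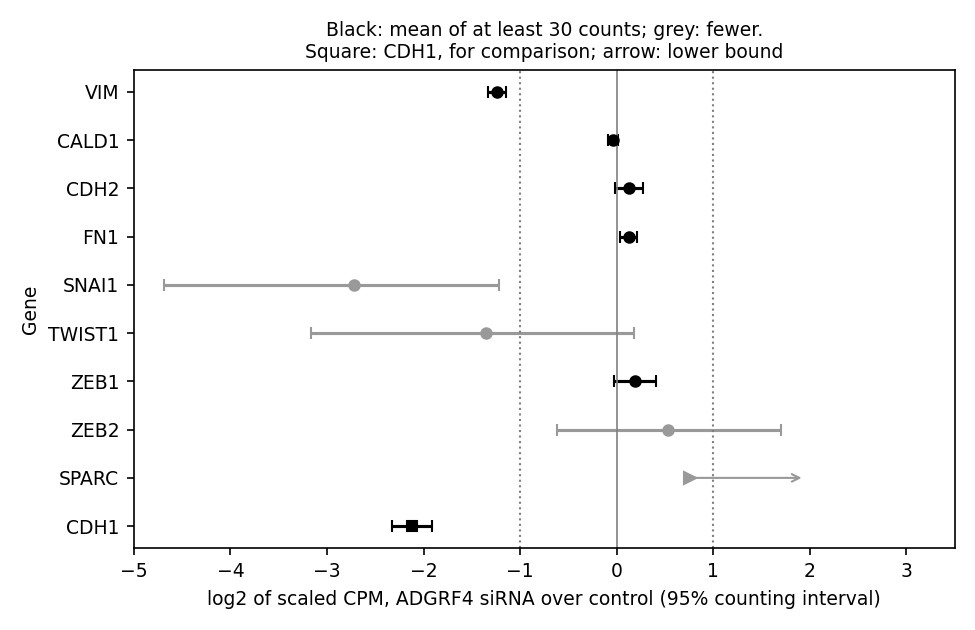
Log2 of the ratio of scaled CPM (ADGRF4 siRNA over control) for each gene with its exact 95% counting interval. Black marks have a mean of at least 30 counts, grey marks fewer, the arrow starts at the lower end of the exact interval of SPARC, the square is CDH1, and SNAI2 is not drawn. VIM and CDH1 lie left of the dotted 2-fold line with narrow intervals, and the intervals of TWIST1 and ZEB2 include 0.

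SNAI1 encodes Snail, a zinc-finger repressor of CDH1 with a short-lived protein. It had 31 counts in the control (21.1 to 44.0) and 4 counts after ADGRF4 siRNA (1.09 to 10.2), so the intervals of the libraries do not overlap. The ratio was 6.61-fold lower, with a wide interval of 2.34 to 25.8. Its mean of 17.5 counts lies under the limit for comparison. Of the 1866 symbols with a mean of 10 to under 30 counts, 21.9% were at least 2-fold lower without a pseudocount and 3.86% at least 6-fold lower. GENCODE names 1 pseudogene of SNAI1, SNAI1P1, which can share its reads.

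SNAI2 encodes Slug, a close relative of Snail. It had 1 count in the control and 2 after ADGRF4 siRNA, both under the limit that a count of 0 allows, and no fold is given. TWIST1 encodes a basic helix-loop-helix factor that drives mesenchymal programs in development. It had 15 and 5 counts, 2.56-fold lower with an interval (0.884 to 9.0) that includes no difference, so a change was not detectable at this depth. Slug and TWIST1 thus add no direction to the lower count of Snail. SNAI3, a Snail-family gene that is not a member, went the other way, with 2 counts in the control and 13 after ADGRF4 siRNA. It was 7.62-fold higher, with a wide interval of 1.73 to 69.6. Its mean of 7.5 counts also lies under the limit for comparison. SNAI3-AS1, an antisense RNA at the locus, had 31 and 83 counts, which could not be told from SNAI3 reads if strand was not used.

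ZEB1 encodes a zinc-finger and homeodomain repressor of CDH1 and other epithelial genes. It had 363 counts in the control and 352 after ADGRF4 siRNA, or 33.2 and 37.7 scaled CPM. The libraries overlap, and the fold of 1.14 (0.979 to 1.32) includes no difference. Under TMM scaling this counting interval does not reach 1.5-fold, but it leaves out the error between cultures. Relative to the median of its GC bin its log2 ratio was 0.46, a value given without an interval. ZEB1-AS1, an antisense RNA at the locus, had 19 and 12 counts. ZEB2, its paralog, had 13 and 16 counts, a fold of 1.44 (0.651 to 3.26) that leaves the direction undetermined. ZEB2-AS1 had 0 and 6 counts, which could not be told from ZEB2 reads if strand was not used. GENCODE also names 1 pseudogene of ZEB2, ZEB2P1, which can share its reads. Of the 5 factors, then, ZEB1 could be compared and was level, and CDH1 was lower beside a level ZEB1 and a lower, sparsely read SNAI1.

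**Figure D4:**
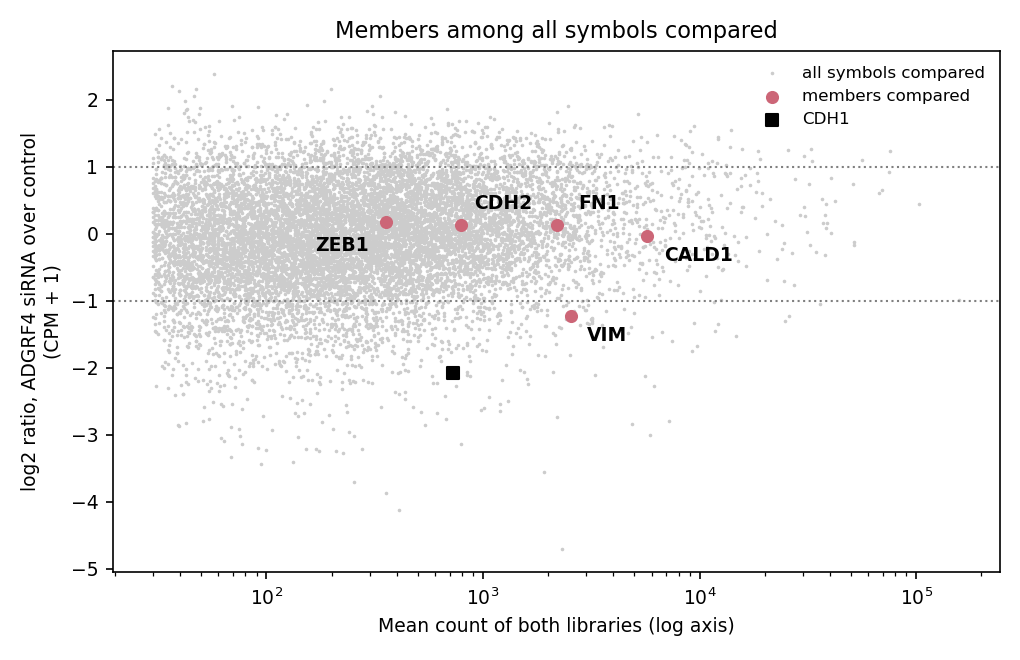
Log2 ratio (ADGRF4 siRNA over control, scaled CPM + 1) against the mean count of both libraries on a log axis, for the 11771 symbols compared (grey), the 5 members among them (red) and CDH1 (square). ZEB1, CDH2, FN1 and CALD1 lie near 0 in the middle of the cloud, and VIM at -1.23 and CDH1 at -2.08 lie below the dotted 2-fold line.

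Relative to the medians of the GC bins, 19.0% of the 11139 symbols with a value were at least 1.5-fold lower and 15.3% higher, beside the 22.3% and 21.1% without centring, and VIM remained the 1 lower member of the 5. The counts of the lists below are given on both scales and read against these shares. For the 9 markers of A549 given above, centring left 1 at least 1.5-fold higher (KRT7, log2 ratio 0.69) and 4 lower. Of 17 other transcription factors linked to the transition, 10 were compared. Of these, 4 were at least 1.5-fold lower and 0 higher, but 1 lower and 0 higher relative to the GC bins. Their median log2 ratio was -0.42, and -0.18 relative to the bins. FOXQ1, a forkhead factor, was 2.16-fold lower (1.74 to 2.69), on 304 counts in the control and 120 after ADGRF4 siRNA, and relative to its GC bin its log2 ratio was -0.73. The other lower ones were SOX9, ETS1 and MSX2, between 1.57-fold and 1.82-fold, and relative to their GC bins (-0.48, -0.37 and -0.41) none of them reached 1.5-fold. TWIST2 had 34 counts in each library. SOX4, with 4342 and 4293 counts, was 1.16-fold higher.

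The corepressors and chromatin enzymes that Snail and ZEB proteins recruit went both ways. Of 17, all compared, 4 were higher by 1.5-fold or more, 3 were lower and 10 lay between, with a median log2 ratio of 0.01. Relative to the GC bins 4 were higher and 3 lower. The higher ones were not the same genes, since EZH2 (0.71) passed the limit on that scale and EHMT2 (0.18) lost it. CTBP1 and CTBP2 encode the closely related corepressors that ZEB1 binds. CTBP1 was 2.73-fold lower (2.38 to 3.13), on 890 counts in the control and 278 after ADGRF4 siRNA, whereas CTBP2 was 1.58-fold higher (1.51 to 1.66), on 3086 counts in the control and 4163 after ADGRF4 siRNA. Relative to their GC bins the log2 ratios were -1.99 and 1.02, so the paralogs differed in opposite directions on both scales. SUV39H1, a histone H3 lysine methyltransferase, was 3.09-fold higher (2.41 to 4.0), on 88 counts in the control and 232 after ADGRF4 siRNA. Its log2 ratio relative to its GC bin was 1.01.

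Among 13 compared genes that control the stability or location of the factors' proteins, 3 were lower by 1.5-fold or more, 1 was higher and 9 lay between. Relative to the GC bins 1 was lower, SIAH1, and 1 higher, PSMD14, while FBXO45 (-0.36), PAK1 (-0.27) and CTDSP1 (-0.02) lay between. SIAH1, a ubiquitin ligase, was 4.21-fold lower (3.35 to 5.34), on 444 counts in the control and 90 after ADGRF4 siRNA. Relative to its GC bin its log2 ratio was -1.60. GSK3B, the kinase that marks Snail for destruction, and BTRC, the ubiquitin ligase subunit that reads the mark, were level, with log2 ratios of 0.02 and 0.16. The median log2 ratio of the list was -0.35, and -0.07 relative to the GC bins.

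Of 6 regulators of the splicing changes in the transition, 3 were at least 1.5-fold lower and 1 higher, and relative to the GC bins 2 were lower and 0 higher. SRSF1, a serine- and arginine-rich splicing factor, was 2.98-fold lower (2.67 to 3.34), on 1396 counts in the control and 399 after ADGRF4 siRNA. QKI, an RNA-binding protein, was 2.32-fold lower (2.11 to 2.54), on 1711 counts in the control and 630 after ADGRF4 siRNA. Relative to their GC bins the log2 ratios of SRSF1 and QKI were -1.24 and -0.88. PTBP1 was 1.88-fold higher, but its log2 ratio relative to its GC bin was 0.07, with a 3' end of 69.7% GC. ESRP1, an epithelial splicing regulator, had 0 counts in both libraries, and its relative ESRP2 had 142 and 111 counts. The median log2 ratio of the 6 genes was -0.69, and -0.40 relative to the GC bins.

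Of 25 epithelial genes that the factors are known to repress or that mark epithelium, 24 had a row and 12 were compared. CDH1 and CLDN1, which encodes a tight junction claudin, were at least 2-fold lower, and none was 2-fold higher. CLDN1 was 2.10-fold lower (1.72 to 2.57), on 352 counts in the control and 143 after ADGRF4 siRNA, with a log2 ratio of -0.66 relative to its GC bin. DSP (desmoplakin), ELF3 and ERBB3 were level, with log2 ratios of -0.06, -0.07 and 0.10. At 1.5-fold, 3 of the 12 were lower, 2 higher and 7 between, with a median log2 ratio of -0.09. Relative to the GC bins CDH1 and CLDN1 were lower and MARVELD2 higher by 1.5-fold, while EPCAM (-0.31), TJP3 (0.13) and MUC1 (0.03) lay between. The lower CDH1 was therefore not shared by most of the epithelial genes compared.

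Of 27 other mesenchymal genes, 13 were compared and 0 were at least 2-fold apart in either direction. At 1.5-fold, 2 were higher and 2 lower, with a median log2 ratio of 0.18 (-0.02 relative to the GC bins). AXL, a receptor tyrosine kinase, was 1.99-fold higher (1.80 to 2.21) and TPM1, a tropomyosin, 1.70-fold higher (1.64 to 1.75). LOXL2, a lysyl oxidase of the matrix, was 1.53-fold lower (1.30 to 1.80). Relative to the GC bins 3 were higher (AXL, TPM1 and COL5A1) and 1 lower (COL1A1), and LOXL2 (-0.51) lay between. A further 14 were under the count limit, and 8 of these had at most 3 counts in each library, among them POSTN and FAP.

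The partners of the structural proteins also differed in part. The cadherins bind catenins, and CTNNB1 (beta-catenin) had 2902 and 943 counts, 2.62-fold lower (2.44 to 2.83). CTNND1 (p120 catenin), which holds cadherins at the membrane, was 2.37-fold lower (2.16 to 2.60), on 1711 counts in the control and 616 after ADGRF4 siRNA. CTNNA1 (alpha-catenin) was 1.26-fold lower (1.14 to 1.40). Relative to their GC bins the log2 ratios of the 3 catenins were -1.22, -1.03 and -0.04. Thus CDH1, CTNNB1 and CTNND1 were each at least 2-fold lower, while CTNNA1 was not, and CDH2, which uses the same catenins, was level. Among the 13 partners compared, 2 were at least 2-fold lower and 1 higher, beside 10.4% and 7.84% of all symbols. A joint pattern of these genes was not tested.

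Fibronectin is bound by the integrin of ITGA5 and ITGB1. ITGA5 was 3.14-fold higher (2.57 to 3.85), on 135 counts in the control and 361 after ADGRF4 siRNA, with a log2 ratio of 1.00 relative to its GC bin. ITGB1 was 1.49-fold lower (1.44 to 1.55), on 7797 counts in the control and 4455 after ADGRF4 siRNA. ITGB1 lay between the limits of 1.5-fold, and its log2 ratio relative to its GC bin was -0.29. Of the other integrin genes in the list, ITGAV was 1.52-fold higher (1.35 to 1.71), on 479 counts in the control and 620 after ADGRF4 siRNA. Its log2 ratio relative to its GC bin was 0.87. ITGB3 had 0 counts in the control and 21 after ADGRF4 siRNA, and its mean of 10.5 counts lies under the limit for comparison. Of the 13 partners compared, 3 were higher by 1.5-fold or more, 2 were lower and 8 lay between, and their median log2 ratio was -0.15. Relative to the GC bins 2 were higher and 3 lower.

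**Figure D5:**
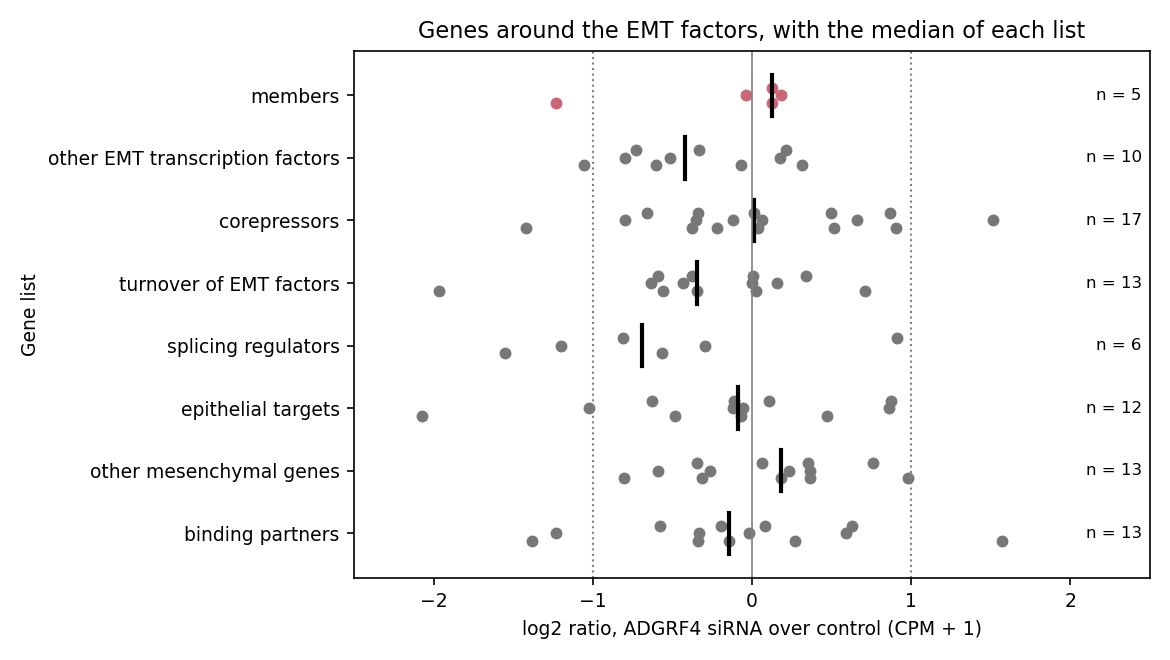
Log2 ratio (ADGRF4 siRNA over control, scaled CPM + 1) of each compared gene in 8 lists, with the list median as a black bar, the number compared at the right, and dotted lines at 2-fold. The members (red) cluster near 0 apart from VIM, and the medians run from -0.69 for the splicing regulators to 0.18 for the other mesenchymal genes.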

How the data were processed

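Each library's file as deposited by the authors holds raw whole-number counts by gene symbol. The submitters' processing notes name Bowtie2, edgeR and hg19. Their roles, the annotation, the strand setting and the handling of multi-mapping reads are not stated there. Rows that repeat a symbol were summed. Library sizes were scaled by TMM in edgeR 4.0.16 (R 4.3.3), and the log2 ratio used a pseudocount of 1 CPM. Symbols averaging 30 counts or more were compared, and a gene was called by size alone, at 2-fold or 1.5-fold. Intervals of ratios are exact (Clopper-Pearson) and those of counts exact Poisson. They cover counting error only, since each treatment has 1 library. Reads carry no molecular identifiers in the files, so copies of 1 molecule cannot be removed. The intervals take reads as independent and may be too narrow. The 3' GC content (final 300 bases) came from GENCODE 29 (GRCh38) for 11139 of the 11771 symbols (94.6%), and ratios were centred on the median of 20 bins. Coordinates on hg19 are not used here.

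The genes and lists were chosen with earlier results of these data known. All 10 members were named, and from each other list the compared genes at least 2-fold apart, up to 4 by size, with CDH1 and ADGRF4. Other genes named as examples (level genes, paralogs, partners, those between 1.5-fold and 2-fold and those that passed or lost a limit relative to the GC bins) were chosen after their values were seen. The ratio calculation was tested on simulated data. Python 3.11.15, numpy 2.4.6, pandas 2.3.3, scipy 1.17.1 and matplotlib 3.10.9 were used, and DESeq2 1.42.0 for an alternative scaling. Other alternatives were total-count and upper-quartile scaling, pseudocounts of 0.1 and 5 CPM, count limits of 10, 100 and none, centring on GC content, and keeping the largest row of each symbol.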

Additional observations from a re-analysis of the deposited data

How the results depend on the processing

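The log2 ratio of VIM lay between -1.38 (total-count scaling) and -0.91 (centred on 3' GC content) over all settings tried, and VIM stayed at least 1.5-fold lower in each. Centring on 3' GC content left 0 members at least 2-fold lower, in place of 1, and moved the median of the members from 0.12 to 0.40. Total-count scaling moved that median to -0.025. On the log2 scale with a pseudocount of 1 CPM, admitting genes with a mean of at least 10 counts, or with no count limit, gave 3 members at least 1.5-fold lower (VIM, SNAI1 and TWIST1) and 2 at least 2-fold lower (VIM and SNAI1). With no limit 1 member, SPARC, was at least 1.5-fold higher. On that scale no setting gave a member at least 2-fold higher. The pseudocount shrinks the ratios of such low genes: TWIST1 was 2.56-fold lower without it and -0.63 with it, and SPARC, at 0 in the control, has no ratio without it and 0.81 with it. The remaining 42 of 50 values for the counts and the median lay within 1.5 times the count, or within the counting interval of the median gene. No paired analysis was possible because each treatment has 1 library. Depth limits the 5 members under 30 mean counts.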
